A study of Homo sapiens with 192 samples.

Results

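The lysosomal genes described here are 32 protein-coding genes chosen by name: 9 cathepsins and other proteases, 8 glycosidases, 7 lipid-handling enzymes and cofactors, 6 membrane proteins, and the transcription factors TFEB and TFE3. All 32 were found by their Ensembl identifiers among the 58243 genes of the count files, and all 32 were among the 19387 genes with enough counts to be tested. PolyA+ RNA was sequenced from 4 human colorectal cancer (CRC) lines (HCT116, LS174T, LS513 and HT29) grown either in 2D or in 3D, with 3 libraries for each of the 8 groups and no other treatment. The study's spheroid assays used low-attachment plates, and how the 3D cultures for RNA were set up is not given in the sources used here. HT29 and LS513 are microsatellite stable, while HCT116 and LS174T are microsatellite instable. Per the study's methods, HCT116 was kept in McCoy medium and the other lines in DMEM, so medium and line cannot be told apart for HCT116. Each line is a single established cell line, and the labels do not say whether the 3 libraries of a group came from separate cultures, so the p-values below measure only the spread between libraries.

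The lysosome is the acidic compartment in which cells break down proteins, glycans, glycogen and lipids. Its hydrolases are made in the endoplasmic reticulum and are sorted from the Golgi, largely through a mannose 6-phosphate tag, while heavily glycosylated membrane proteins line the compartment and export its products. TFEB and its relative TFE3 are basic helix-loop-helix transcription factors that mTORC1 holds in the cytosol in fed cells and that activate many lysosomal genes from the nucleus when nutrients are low, through an extended E-box known as the CLEAR element. Epithelial tumor cells kept in 3D commonly pack into aggregates in which cells no longer share the same access to medium. Cathepsins have long been studied in colorectal tumors, where some are secreted.

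Libraries held between 18723942 and 34277421 counts (median 30777613), so the floor of 3 counts lay between 0.0875 and 0.160 CPM (counts per 1000000 counts of the library) before scaling. CPM below are on the TMM scale, which corrects each library total for composition. Of 8 colon epithelial markers, 8 had over 3 counts in every library of HT29, LS513 and LS174T and 7 in HCT116, in which CDH17 was absent or at the floor. Since lysosomal genes are also abundant in macrophages, 8 macrophage markers were read as well. PTPRC, CSF1R, CD163, TYROBP, AIF1, MRC1 and C1QA did not exceed 3 counts in every library of any group, and only CD14 did, in HT29 and HCT116. The summed macrophage markers of HT29 were 5.04 to 7.43 CPM in 2D and 10.1 to 15.2 CPM in 3D, and those of the other lines stayed below 0.632 CPM. Mitochondrial genes took 1.14 to 6.40% of the counts, with the highest share in replicate 1 of HCT116 in 3D. Replicate 2 of LS174T in 3D stood above the other LS174T libraries for many of the lysosomal genes. The number of LS174T calls is given with and without this library, and calls of single genes that were lost without it are marked. Unless stated, the LS174T values below include it. In bulk RNA, fewer cells of a state and less RNA per cell cannot be told apart.

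The growth condition moved many of these genes, mostly upward in 3D. In HCT116, 21 of the 32 genes were higher in 3D and 2 were lower at an adjusted p under 0.05, where 29.1% of all tested genes passed (16.8% higher and 12.3% lower). In HT29, 15 were higher and 4 lower, against 40.7% of all tested genes (21.1% higher and 19.6% lower). In LS513, 12 were higher and 1 lower, against 23.6% of all tested genes (13.7% higher and 9.9% lower). LS174T had the smallest count, with 7 higher and 1 lower against 22.2% of all tested genes (13.1% higher and 9.15% lower), a share of members (25.0%) near the background. The LS174T count fell from 8 to 2 without replicate 2 in 3D, NEU1 and NPC2 being the remaining ones, while the share of all tested genes fell from 22.2% to 10.5%. It fell to 5 without replicate 1 or replicate 3 in 2D, where 13.7% and 13.2% of all tested genes passed. The libraries of 2D and 3D did not overlap, with 3D higher, for 21 genes in HCT116 (22.8% of all tested genes), 16 in HT29 (27.3%), 15 in LS513 (23%) and 11 in LS174T (20.9%). With 3D lower, they did not overlap for 3 genes in HCT116 (17.6% of all tested genes), 6 in HT29 (25.6%), 2 in LS513 (20%) and 3 in LS174T (17.6%).

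The size of the shift was moderate. The median log2 fold change of the 32 genes (3D over 2D) was 0.44 in HCT116, 0.26 in HT29, 0.19 in LS513, and 0.089 in LS174T, against medians between 0 and 0.016 over all tested genes. HEXA, NEU1, NPC2 and PSAP were higher in 3D in all 4 lines, which 3.14% of all tested genes were. Another 8, CTSH, CTSS, CTSZ, GLB1, GAA, SMPD1, GRN and CD63, were higher in 3 lines, so that 12 of the 32 were higher in at least 3 lines, against 8.38% of all tested genes. PPT1 alone was lower in all 4 lines, against 2.46% of all tested genes (6.32% in at least 3 lines). GLA, LAMP2, MCOLN1 and TFEB passed in none of the 4 lines, against 39.1% of all tested genes (for TFEB this depended on the test, as given with its values), and NPC1 alone was called in both directions. On the mean of the 4 lines, 21 genes were higher in 3D and 3 lower, where 50.5% of all tested genes passed (26.6% higher and 23.9% lower). The study's gene count used a log2 fold change under -0.5 or over 1.5 with p under 0.05. Taken here at an adjusted p under 0.05, these cutoffs left CTSC, CTSS and NPC1 in HT29 (17.4% of all tested genes). They left CTSS in LS174T (7.26%), and none in LS513 (8.03%) or HCT116 (9.28%). Rises such as NEU1 in HCT116 (1.36) and LS513 (1.29) fell short of 1.5. The study's gene set analysis used a lower cutoff for rises, which was not applied here.

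**Figure D1:**
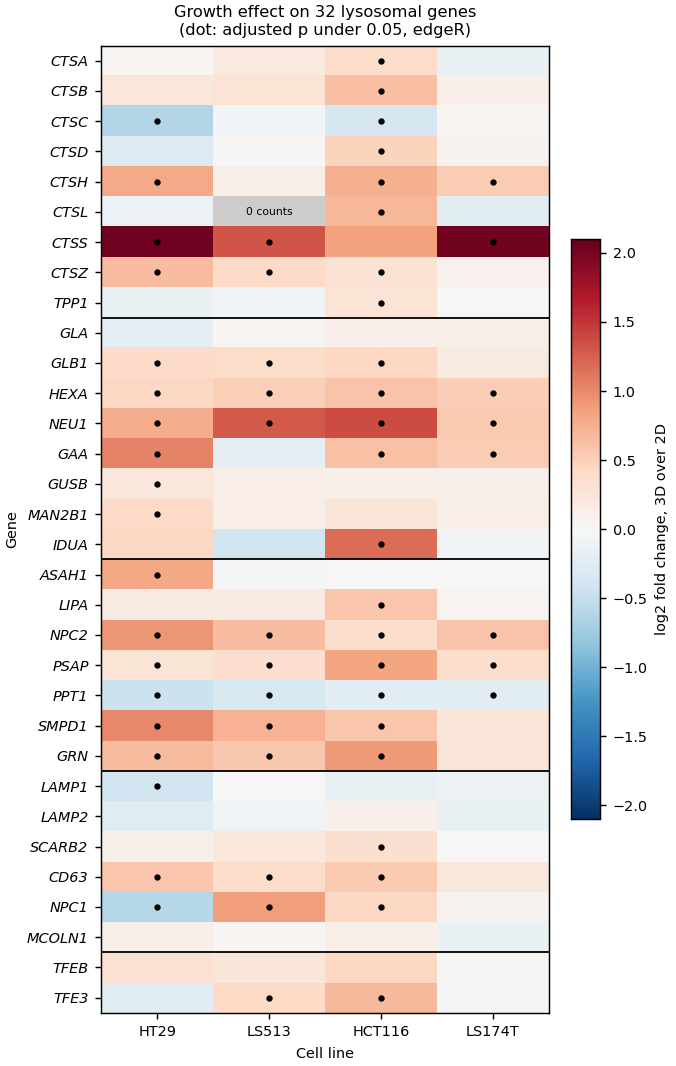
Log2 fold change of 3D over 2D for the 32 lysosomal genes (rows, grouped by role) in the 4 lines (columns), red for higher and blue for lower in 3D, with a dot where the edgeR adjusted p was under 0.05 and gray where LS513 had 0 counts for CTSL. The rows of HEXA, NEU1, NPC2 and PSAP are red with a dot in all 4 lines, the row of PPT1 is blue with a dot in all 4, and HCT116 carries 23 dots against 8 in LS174T.

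TFEB was measured at 30.2, 25.5 and 28.5 CPM in 2D and 37, 35.9 and 32.7 CPM in 3D in HT29, the line with the highest level of this gene. The 3 libraries in 3D lay above the 3 in 2D, but the difference did not pass across all genes (log2 fold change 0.33 ± 0.15, edgeR adjusted p = 0.0842). It passed by the DESeq2 test (adjusted p = 0.0461) and with the 6 HT29 libraries alone (edgeR adjusted p = 0.0124). In LS513, TFEB was at 16.6, 15 and 15.5 CPM in 2D and 20.5, 19.9 and 15.8 CPM in 3D, and the lowest 3D library lay within the 2D range (log2 fold change 0.26 ± 0.15, edgeR adjusted p = 0.246). In HCT116 the values were 4.41, 4.23 and 7.06 CPM in 2D and 7.15, 7.16 and 6.82 CPM in 3D, where replicate 3 in 2D was at the level of the 3D libraries and the difference fell just short (log2 fold change 0.43 ± 0.16, edgeR adjusted p = 0.0501); without that library it passed (log2 fold change 0.68, edgeR adjusted p = 0.00206). It also passed by the DESeq2 test (adjusted p = 0.0364) and without technical replicate d (edgeR adjusted p = 0.0442). LS174T libraries overlapped fully, with TFEB at 5.44, 4.55 and 4.5 CPM in 2D and 5.24, 5.51 and 4.02 CPM in 3D (log2 fold change 0.025 ± 0.17, edgeR adjusted p = 0.96). On the mean of the 4 lines TFEB was higher in 3D (log2 fold change 0.26 ± 0.079, edgeR adjusted p = 0.0082), and its growth effect was not shown to differ between lines (edgeR interaction adjusted p = 0.581).

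TFE3 behaved differently in the 4 lines (edgeR interaction adjusted p = 0.000727). In HCT116 it was at 16.8, 15.4 and 19.5 CPM in 2D and 30.7, 29.8 and 22 CPM in 3D, all 3D libraries lying above all 2D libraries (log2 fold change 0.67 ± 0.12, edgeR adjusted p = 0.000163). In LS513 it was at 35, 34.3 and 36.4 CPM in 2D and 50.6, 48.9 and 42 CPM in 3D, again without overlap (log2 fold change 0.42 ± 0.11, edgeR adjusted p = 0.00891), a call that was lost without 3D replicate 1 (log2 fold change 0.36, edgeR adjusted p = 0.0586). HT29 had the opposite order, with 100.1, 111 and 95 CPM in 2D and 82.6, 88.7 and 87.5 CPM in 3D, and the difference did not pass (log2 fold change -0.24 ± 0.11, edgeR adjusted p = 0.0866), although it did with the 6 HT29 libraries alone (log2 fold change -0.24, edgeR adjusted p = 0.0287). LS174T showed no separation, at 34.5, 36 and 36.5 CPM in 2D and 37.6, 31.5 and 36.1 CPM in 3D (log2 fold change -0.022 ± 0.11, edgeR adjusted p = 0.937). TFEB and TFE3 encode the regulators, and these values are their RNA levels only; where the proteins reside was not measured.

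The start regions of the lysosomal genes were searched for the letters that TFEB and TFE3 are known to bind. RefSeq promoters on GRCh38.p14, 250 bases before to 50 bases after the start, were at hand for 26 of the 32 genes. CTSB, ASAH1, CTSS, HEXA, PSAP and LAMP2 were not included. The E-box CACGTG was present in 7 of the 26 (26.9%), against 7.26% of 35116 promoters and 9.69% of the 12620 promoters of tested genes. The longer palindrome TCACGTGA, which contains the E-box, was present in 4 (15.4%), against 0.98% of all and 1.74% of tested promoters. The full GTCACGTGAC, which contains both, was present in GAA and MCOLN1 (7.69%), against 0.353% of all and 0.721% of tested promoters. All 3 motifs read the same on both strands. The genes were chosen by name as lysosomal, and TFEB and TFE3 are known to activate many lysosomal genes through such letters. Shares above the background were therefore to be foreseen from that choice and are not separate evidence.

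The promoters of the 4 genes with TCACGTGA and of NEU1, the glycosidase with the largest mean growth effect, are printed 5′ to 3′ in the direction of the gene, with each E-box and its matching flanks in capitals. GAA lies at chr17:80101331-80101630 on the plus strand, MCOLN1 at chr19:7522374-7522673 on the plus strand, CTSA at chr20:45891085-45891384 on the plus strand, LAMP1 at chr13:113296989-113297288 on the plus strand and NEU1 at chr6:31862772-31863071 on the minus strand.
GAA: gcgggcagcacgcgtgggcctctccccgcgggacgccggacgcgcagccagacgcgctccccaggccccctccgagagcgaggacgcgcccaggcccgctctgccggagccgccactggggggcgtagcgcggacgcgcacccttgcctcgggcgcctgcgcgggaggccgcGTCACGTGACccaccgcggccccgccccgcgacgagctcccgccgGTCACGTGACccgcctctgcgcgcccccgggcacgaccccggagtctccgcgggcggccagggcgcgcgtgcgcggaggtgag
MCOLN1: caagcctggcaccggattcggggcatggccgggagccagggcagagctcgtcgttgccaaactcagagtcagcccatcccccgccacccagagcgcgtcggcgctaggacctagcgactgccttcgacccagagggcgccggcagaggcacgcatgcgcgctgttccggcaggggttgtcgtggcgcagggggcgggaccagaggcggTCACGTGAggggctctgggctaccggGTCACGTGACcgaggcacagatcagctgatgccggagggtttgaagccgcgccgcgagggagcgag
CTSA: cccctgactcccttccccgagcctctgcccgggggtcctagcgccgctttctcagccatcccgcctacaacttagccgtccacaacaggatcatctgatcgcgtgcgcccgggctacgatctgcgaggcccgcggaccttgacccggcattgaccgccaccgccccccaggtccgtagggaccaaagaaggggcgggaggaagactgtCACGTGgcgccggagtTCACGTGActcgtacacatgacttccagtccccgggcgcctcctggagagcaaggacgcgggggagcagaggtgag
LAMP1: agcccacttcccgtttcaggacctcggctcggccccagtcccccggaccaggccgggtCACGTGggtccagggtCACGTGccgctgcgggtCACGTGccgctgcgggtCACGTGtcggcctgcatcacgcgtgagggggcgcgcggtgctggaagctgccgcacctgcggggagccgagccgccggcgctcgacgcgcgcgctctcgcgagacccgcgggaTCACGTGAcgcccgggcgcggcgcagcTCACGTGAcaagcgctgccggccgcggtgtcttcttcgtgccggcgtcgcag
NEU1: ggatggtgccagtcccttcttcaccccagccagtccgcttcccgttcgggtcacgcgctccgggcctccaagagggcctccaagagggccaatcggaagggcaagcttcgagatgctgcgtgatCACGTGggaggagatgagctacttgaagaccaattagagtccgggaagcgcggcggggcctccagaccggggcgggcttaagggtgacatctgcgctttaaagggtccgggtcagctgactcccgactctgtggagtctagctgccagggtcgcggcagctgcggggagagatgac
GAA carries GTCACGTGAC 2 times, MCOLN1 carries TCACGTGA 2 times with 1 of them extended to GTCACGTGAC, CTSA carries TCACGTGA once beside 1 plain E-box, and LAMP1 carries 6 E-boxes of which 2 are TCACGTGA. NEU1 carries a single plain E-box, as do CTSD and CD63.

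Genes with these letters were called in different lines. GAA was higher in 3D in 3 lines, CTSA in HCT116 alone (log2 fold change 0.39 ± 0.11, edgeR adjusted p = 0.00906), MCOLN1 in none, and LAMP1 was lower in 3D in HT29 (log2 fold change -0.40 ± 0.091, edgeR adjusted p = 0.00127). Of the E-box genes, NEU1 was higher in 3D in 4 lines, CD63 in 3 and CTSD in HCT116 alone. NPC2, higher in 4 lines, and CTSH, CTSZ, GRN, GLB1 and SMPD1, higher in 3, had no CACGTG in these windows, and neither had the window of TFEB. A single start per gene was searched. For CTSA, CTSD and CD63, which carry these letters, the window lay inside the annotated span of the gene. The same held for GLB1, NPC2, CTSH, TFEB, PPT1, SCARB2, NPC1 and CTSL. Starts further upstream were not covered for any of these genes. A match of letters is a description of the sequence and not evidence of binding, and the absence of a match covers these 300 bases only.

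Glycosidases trim sugars from glycoproteins, glycolipids and glycosaminoglycans. Of the 8 measured, 5 were higher in 3D in HCT116, 6 in HT29, 3 in LS174T and 3 in LS513, and none was lower in any line. The shares called were 62.5% in HCT116, 75% in HT29, 37.5% in LS174T and 37.5% in LS513, against 29.1%, 40.7%, 22.2% and 23.6% of all tested genes. NEU1 (ENSG00000204386, chr6:31857659-31862906, minus strand), the sialidase that removes terminal sialic acids, had the largest mean rise among them (log2 fold change 1.00 ± 0.063, edgeR adjusted p = 2.19e-11). In HCT116, NEU1 was at 20.7, 20.7 and 24.9 CPM in 2D and 53.9, 57.2 and 59.8 CPM in 3D, more than doubling between non-overlapping groups (log2 fold change 1.36 ± 0.13, edgeR adjusted p = 5.24e-08). LS513 gave a rise of similar size, with 45.2, 50.1 and 51.7 CPM in 2D and 129, 135 and 96.3 CPM in 3D (log2 fold change 1.29 ± 0.13, edgeR adjusted p = 1.12e-07). HT29 libraries were at 51.6, 52.2 and 44.3 CPM in 2D and 79.2, 84.3 and 90.5 CPM in 3D for the same gene (log2 fold change 0.78 ± 0.12, edgeR adjusted p = 4.25e-05). LS174T, which had the highest NEU1 level in 2D, was at 84.2, 84.9 and 87.2 CPM in 2D and 114, 152 and 110.0 CPM in 3D (log2 fold change 0.55 ± 0.12, edgeR adjusted p = 0.00311). The 3D libraries lay above the 2D libraries in every line, and the size of the effect differed between lines (edgeR interaction adjusted p = 0.00297).

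HEXA (ENSG00000213614, chr15:72340919-72376476, minus strand) encodes the alpha subunit of beta-hexosaminidase, which degrades GM2 ganglioside. In HT29, HEXA was at 121, 104 and 110.5 CPM in 2D and 163, 139 and 149.6 CPM in 3D (log2 fold change 0.43 ± 0.13, edgeR adjusted p = 0.00951). The LS513 values, 34.5, 33.1 and 36.7 CPM in 2D and 49, 55.2 and 43.7 CPM in 3D, also did not overlap (log2 fold change 0.50 ± 0.13, edgeR adjusted p = 0.00609), although the call was lost without 3D replicate 2 (log2 fold change 0.41, edgeR adjusted p = 0.0565). HCT116 was at 45.6, 46 and 50.6 CPM in 2D and 79.3, 71 and 64.8 CPM in 3D (log2 fold change 0.60 ± 0.13, edgeR adjusted p = 0.00123). In LS174T the values were 94, 105 and 105 CPM in 2D and 129, 187 and 121 CPM in 3D, where replicate 2 in 3D was far above the others (log2 fold change 0.52 ± 0.13, edgeR adjusted p = 0.00565); the call was lost without 3D replicate 2 (log2 fold change 0.31, edgeR adjusted p = 0.0611). The estimates of the 4 lines lay close together, between 0.43 and 0.60 on the log2 scale, and no difference between lines was detected (edgeR interaction adjusted p = 0.913). Other genes on the same strand share 4.89% of the exonic bases of HEXA, so a small part of its reads could be ambiguous.

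GLB1 (ENSG00000170266, chr3:32996608-33097230, minus strand), lysosomal beta-galactosidase, works in a complex with NEU1 and the carboxypeptidase CTSA. Its HT29 values were 51.4, 50.3 and 54.3 CPM in 2D and 75.4, 59.4 and 70.6 CPM in 3D (log2 fold change 0.40 ± 0.086, edgeR adjusted p = 0.000834). LS513, the line with the highest GLB1, was at 155, 154 and 162 CPM in 2D and 214, 212 and 186 CPM in 3D (log2 fold change 0.38 ± 0.084, edgeR adjusted p = 0.00203). HCT116 was at 39.1, 38.5 and 39.8 CPM in 2D and 53.9, 51.1 and 53.9 CPM in 3D, with tight replicates in both conditions (log2 fold change 0.44 ± 0.086, edgeR adjusted p = 0.00058). In LS174T, GLB1 was at 108, 113 and 116 CPM in 2D and 127, 137 and 117 CPM in 3D, without overlap but short of the threshold (log2 fold change 0.18 ± 0.085, edgeR adjusted p = 0.124).

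GAA (ENSG00000171298, chr17:80101556-80119879, plus strand), the acid alpha-glucosidase that degrades glycogen and whose loss causes Pompe disease, differed in level between lines more than any other glycosidase. In HT29, where it was scarce, GAA was at 4.66, 3.85 and 4.6 CPM in 2D and 10.2, 6.98 and 9.87 CPM in 3D (log2 fold change 1.05 ± 0.18, edgeR adjusted p = 7.65e-05). In HCT116 it was at 148, 145 and 161 CPM in 2D and 263, 241 and 192 CPM in 3D, and the groups again did not overlap (log2 fold change 0.62 ± 0.15, edgeR adjusted p = 0.00291). LS174T was at 50.5, 50.1 and 47.2 CPM in 2D and 64.9, 86.9 and 61.6 CPM in 3D (log2 fold change 0.53 ± 0.15, edgeR adjusted p = 0.0144); the call was lost without 2D replicate 3 or 3D replicate 2 (log2 fold change between 0.37 and 0.50, edgeR adjusted p between 0.0578 and 0.105). LS513 libraries overlapped, at 10.7, 12.1 and 15.9 CPM in 2D and 11.3, 12.3 and 10.1 CPM in 3D, with an estimate below 0 (log2 fold change -0.20 ± 0.16, edgeR adjusted p = 0.416). The growth effect on GAA differed between lines (edgeR interaction adjusted p = 0.0038).

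IDUA (ENSG00000127415, chr4:986997-1004506, plus strand), the iduronidase of heparan and dermatan sulfate breakdown, shows how 1 library can carry a call. In HCT116, IDUA was at 1.24, 1.55 and 1.54 CPM in 2D and 6.55, 2.32 and 0.936 CPM in 3D, and replicate 1 in 3D, the library with the highest mitochondrial share (6.40%), stood far above the rest (log2 fold change 1.18 ± 0.39, edgeR adjusted p = 0.0257). The groups overlapped, and the call was lost without 2D replicate 1, 2 or 3 or 3D replicate 1 (log2 fold change between 0.16 and 1.23, edgeR adjusted p between 0.0511 and 0.756), the lowest value being the one without replicate 1 in 3D. The other lines gave no call: HT29 was at 7.51, 5.57 and 5.48 CPM in 2D and 7.45, 10.2 and 7.44 CPM in 3D (log2 fold change 0.43 ± 0.34, edgeR adjusted p = 0.332). LS513 was at 4.15, 4.05 and 3.96 CPM in 2D and 2.92, 3.59 and 2.6 CPM in 3D (log2 fold change -0.42 ± 0.36, edgeR adjusted p = 0.452). LS174T was at 5.71, 5.43 and 5.12 CPM in 2D and 5.12, 6.31 and 4.3 CPM in 3D (log2 fold change -0.052 ± 0.34, edgeR adjusted p = 0.96). GUSB, beta-glucuronidase, was called higher in 3D in HT29 alone, just under the threshold (log2 fold change 0.24 ± 0.095, edgeR adjusted p = 0.0495). MAN2B1, lysosomal alpha-mannosidase, was also called there alone, with overlapping libraries (log2 fold change 0.40 ± 0.12, edgeR adjusted p = 0.0116). In HCT116, MAN2B1 was higher without overlap but did not pass (log2 fold change 0.26 ± 0.12, edgeR adjusted p = 0.101). Neither gene was among those whose growth effect differed between lines. Other genes of its strand share 21.2% of the exonic bases of MAN2B1. GLA, alpha-galactosidase A, passed in no line, with log2 fold changes between -0.20 and 0.13.

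**Figure D2:**
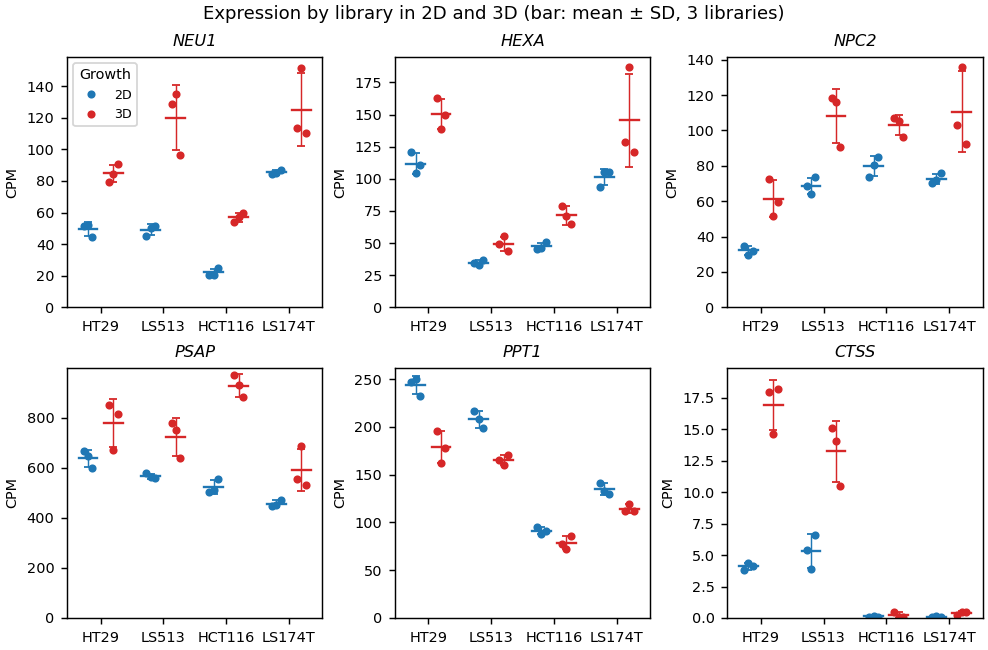
CPM (y axis, linear from 0) of NEU1, HEXA, NPC2, PSAP, PPT1 and CTSS in the 3 libraries of each line in 2D (blue) and 3D (red), with bars for mean ± SD. Red points lie above blue points in every line for the first 4 genes and below them for PPT1, HEXA of LS174T has 1 red point at 187 CPM above the others, and CTSS of HCT116 and LS174T sits near 0.

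All 7 lipid-handling genes passed on the mean of the 4 lines, 6 higher and 1 lower in 3D, where 50.5% of all tested genes passed. A call on the mean need not be shared by the lines, since ASAH1 was called in HT29 alone and LIPA in HCT116 alone. NPC2 (ENSG00000119655, chr14:74476192-74494177, minus strand), the small luminal protein that picks up cholesterol and hands it to NPC1, was higher in 3D in all 4 lines. In HT29, NPC2 was at 34.8, 29.8 and 32 CPM in 2D and 72.5, 51.6 and 59.8 CPM in 3D (log2 fold change 0.93 ± 0.13, edgeR adjusted p = 1.08e-05). LS513 was at 68.7, 64.3 and 73.4 CPM in 2D and 118, 116 and 90.7 CPM in 3D (log2 fold change 0.65 ± 0.13, edgeR adjusted p = 0.000761). LS174T was at 70.4, 71.9 and 75.8 CPM in 2D and 103, 136 and 92.6 CPM in 3D, with replicate 2 in 3D again the highest (log2 fold change 0.61 ± 0.13, edgeR adjusted p = 0.00221). The call in LS174T held without that library. The smallest rise was in HCT116, at 73.8, 80.7 and 85 CPM in 2D and 107, 105 and 96.5 CPM in 3D (log2 fold change 0.37 ± 0.13, edgeR adjusted p = 0.0365), and it was lost without any 1 of its 6 libraries (log2 fold change between 0.31 and 0.39, edgeR adjusted p between 0.0535 and 0.149), although the groups did not overlap. The lines were not shown to differ (edgeR interaction adjusted p = 0.162).

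PSAP (ENSG00000197746, chr10:71816298-71851375, minus strand) encodes prosaposin, the precursor of the saposins that present sphingolipids to their hydrolases, and was among the most abundant of the 32 genes in each line. HCT116 showed the largest rise, with 504, 512 and 555 CPM in 2D and 972, 929.8 and 881 CPM in 3D (log2 fold change 0.82 ± 0.10, edgeR adjusted p = 2.8e-06). In HT29 the values were 666, 646 and 601 CPM in 2D and 849.9, 671 and 813 CPM in 3D, with 1 library in 3D barely above the 2D range (log2 fold change 0.29 ± 0.10, edgeR adjusted p = 0.0264), and the call was lost without 2D replicate 3 or 3D replicate 1 or 4 (log2 fold change between 0.25 and 0.29, edgeR adjusted p between 0.055 and 0.0927). LS513 was at 578, 562 and 557 CPM in 2D and 778, 751 and 637 CPM in 3D (log2 fold change 0.35 ± 0.10, edgeR adjusted p = 0.0133), a call lost without 3D replicate 1 or 2 (log2 fold change between 0.29 and 0.32, edgeR adjusted p between 0.0739 and 0.0993). LS174T was at 448, 449.8 and 472 CPM in 2D and 555, 687 and 531 CPM in 3D (log2 fold change 0.37 ± 0.10, edgeR adjusted p = 0.0115), a call lost without 3D replicate 2 (log2 fold change 0.26, edgeR adjusted p = 0.0971). The 3D libraries exceeded the 2D libraries in all 4 lines, and the sizes differed (edgeR interaction adjusted p = 0.0272).

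PPT1 (ENSG00000131238, chr1:40071461-40097727, minus strand), the thioesterase that removes palmitate from proteins, moved the other way. In HT29, PPT1 was at 248, 250.3 and 233 CPM in 2D and 196, 162 and 178 CPM in 3D (log2 fold change -0.45 ± 0.079, edgeR adjusted p = 0.000109). LS513 was at 217, 208 and 199 CPM in 2D and 166, 160.0 and 171 CPM in 3D (log2 fold change -0.33 ± 0.079, edgeR adjusted p = 0.00372). HCT116 was at 95.1, 88.1 and 90.7 CPM in 2D and 77.7, 72.6 and 85.8 CPM in 3D (log2 fold change -0.21 ± 0.079, edgeR adjusted p = 0.0457). All 3D libraries of these lines lay below the 2D libraries, as in LS174T, which was at 142, 133 and 129.9 CPM in 2D and 112, 119.6 and 112 CPM in 3D (log2 fold change -0.24 ± 0.079, edgeR adjusted p = 0.034). The calls in HT29 and LS513 held without any 1 library. The call in HCT116 was lost without 2D replicate 1 or 2 or 3D replicate 1 or 2 (log2 fold change between -0.24 and -0.18, edgeR adjusted p between 0.0606 and 0.173), and the call in LS174T was lost without any 1 of its 6 libraries (log2 fold change between -0.26 and -0.20, edgeR adjusted p between 0.055 and 0.127). On the mean of the 4 lines PPT1 was lower in 3D with a smaller error (log2 fold change -0.31 ± 0.039, edgeR adjusted p = 9.05e-07), and no difference between lines was detected (edgeR interaction adjusted p = 0.369).

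SMPD1 (ENSG00000166311, chr11:6390431-6394998, plus strand), acid sphingomyelinase, was lowest in HT29, where it was at 1.47, 1.45 and 2.19 CPM in 2D and 3.56, 2.77 and 3.74 CPM in 3D (log2 fold change 1.01 ± 0.16, edgeR adjusted p = 4.59e-05). LS513 was at 13.2, 14.8 and 13.4 CPM in 2D and 23.6, 24.3 and 21.1 CPM in 3D (log2 fold change 0.74 ± 0.13, edgeR adjusted p = 0.000208). HCT116 was at 5.59, 4.74 and 5.9 CPM in 2D and 8.58, 7.94 and 7.72 CPM in 3D (log2 fold change 0.58 ± 0.14, edgeR adjusted p = 0.00274). These 3 lines passed with no overlap between groups. In LS174T, SMPD1 was at 9.03, 10.5 and 9.57 CPM in 2D and 12, 11.9 and 10.9 CPM in 3D, also without overlap but short of the threshold (log2 fold change 0.26 ± 0.13, edgeR adjusted p = 0.161).

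GRN (ENSG00000030582, chr17:44345086-44353102, plus strand) encodes progranulin, a secreted and lysosomal glycoprotein that is cleaved into granulins. In HCT116, GRN was at 141, 137 and 162 CPM in 2D and 304, 284 and 231 CPM in 3D (log2 fold change 0.90 ± 0.13, edgeR adjusted p = 3.37e-05). HT29 was at 239, 198 and 245 CPM in 2D and 433, 299 and 353 CPM in 3D (log2 fold change 0.67 ± 0.13, edgeR adjusted p = 0.000414). LS513 was at 144, 146 and 163 CPM in 2D and 241, 240.4 and 184 CPM in 3D (log2 fold change 0.56 ± 0.13, edgeR adjusted p = 0.0038). The same direction without overlap was seen in LS174T, at 169, 162 and 168 CPM in 2D and 199.6, 226 and 172 CPM in 3D, which did not pass (log2 fold change 0.26 ± 0.13, edgeR adjusted p = 0.168).

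ASAH1 (ENSG00000104763, chromosome 8), acid ceramidase, which splits ceramide into sphingosine and a fatty acid, was higher in 3D in HT29 alone. There it was at 43.8, 41.6 and 50.8 CPM in 2D and 76.6, 79.1 and 82.5 CPM in 3D (log2 fold change 0.81 ± 0.078, edgeR adjusted p = 5.67e-08). In LS513 it was at 95.2, 91.4 and 93.5 CPM in 2D and 92.1, 86.3 and 97.5 CPM in 3D (log2 fold change -0.022 ± 0.076, edgeR adjusted p = 0.911). HCT116 was at 82.8, 82.5 and 83.2 CPM in 2D and 84.9, 79.3 and 83.7 CPM in 3D (log2 fold change -0.0035 ± 0.076, edgeR adjusted p = 1). Libraries of 2D and 3D overlapped in both of these lines and in LS174T, at 93.5, 94 and 95.4 CPM in 2D and 91, 99 and 92.6 CPM in 3D (log2 fold change -0.0014 ± 0.076, edgeR adjusted p = 1). The difference between lines passed (edgeR interaction adjusted p = 7.42e-06), and in 3D HT29 came closer to the levels of the other lines. LIPA, lysosomal acid lipase, was higher in 3D in HCT116 alone (log2 fold change 0.58 ± 0.12, edgeR adjusted p = 0.000823), with log2 fold changes between 0.056 and 0.18 in the other lines.

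Membrane proteins moved in both directions. Of the 6, 3 were higher in 3D in HCT116, 2 in LS513, 1 in HT29 and none in LS174T, and 2 were lower in HT29. The shares called were 50% in HCT116, 33.3% in LS513, 50% in HT29 and 0% in LS174T, against 29.1%, 23.6%, 40.7% and 22.2% of all tested genes. NPC1 (ENSG00000141458, chr18:23506184-23586898, minus strand), the transporter that receives cholesterol from NPC2, had opposite calls in different lines. In LS513, NPC1 was at 61.8, 64.6 and 64.9 CPM in 2D and 126, 119 and 106 CPM in 3D (log2 fold change 0.88 ± 0.11, edgeR adjusted p = 3.12e-06). In HT29 it was at 69.5, 68.9 and 57.2 CPM in 2D and 45.1, 42.7 and 41 CPM in 3D, with every 3D library below every 2D library (log2 fold change -0.60 ± 0.11, edgeR adjusted p = 0.000158). HCT116 was at 65.5, 63.3 and 47.2 CPM in 2D and 83.6, 85.2 and 70 CPM in 3D (log2 fold change 0.44 ± 0.11, edgeR adjusted p = 0.00387). Its replicate 3 in 2D was lower than the others, and without it the call was lost (log2 fold change 0.28, edgeR adjusted p = 0.0511). LS174T was at 43.7, 42.9 and 42.5 CPM in 2D and 46.6, 45.8 and 44.2 CPM in 3D, a small step without overlap (log2 fold change 0.081 ± 0.11, edgeR adjusted p = 0.638). NPC1 had the smallest interaction p of the 32 genes (edgeR interaction adjusted p = 2.46e-06). In HT29, NPC2 was higher and NPC1 lower in 3D, while in LS513 and HCT116 both were higher.

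CD63 (ENSG00000135404, chr12:55725323-55729707, minus strand), a tetraspanin of late endosomes, lysosomes and exosomes, was higher in 3D in 3 lines. In HT29, CD63 was at 361, 384 and 315 CPM in 2D and 594, 466 and 526 CPM in 3D (log2 fold change 0.58 ± 0.12, edgeR adjusted p = 0.000447). LS513 was at 313, 311 and 293 CPM in 2D and 408, 439 and 348 CPM in 3D (log2 fold change 0.38 ± 0.12, edgeR adjusted p = 0.0202), a call lost without 2D replicate 2 or 3 or 3D replicate 1 or 2 (log2 fold change between 0.30 and 0.40, edgeR adjusted p between 0.0517 and 0.137). HCT116 was at 151, 139 and 182 CPM in 2D and 247, 213 and 228 CPM in 3D (log2 fold change 0.54 ± 0.12, edgeR adjusted p = 0.0014). In these lines the groups did not overlap. In LS174T, CD63 was at 208, 201 and 198 CPM in 2D and 236, 278 and 207 CPM in 3D, with overlap (log2 fold change 0.24 ± 0.12, edgeR adjusted p = 0.136), and it passed without 3D replicate 3 (log2 fold change 0.34, edgeR adjusted p = 0.0377).

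LAMP1 and LAMP2, the major glycoproteins of the lysosomal membrane, were called in 1 line and in none. LAMP1 was lower in 3D in HT29, at 381, 366 and 402 CPM in 2D and 341, 237 and 291 CPM in 3D (log2 fold change -0.40 ± 0.091, edgeR adjusted p = 0.00127). Its estimates in the other lines lay between -0.15 and -0.011 and did not pass. In HCT116 its 3D libraries (217 to 232 CPM) still lay below the 2D libraries (243 to 256 CPM). The same held in LS174T, with 180 to 193 CPM in 3D and 199 to 209 CPM in 2D. LAMP1 was not among the genes whose growth effect differed between lines. LAMP2 passed in no line (log2 fold changes between -0.25 and 0.11), nor did MCOLN1, the calcium channel whose gene is a known TFEB target (between -0.13 and 0.13). SCARB2, also known as LIMP-2, which carries glucocerebrosidase to the lysosome, was called higher in 3D in HCT116 alone (log2 fold change 0.34 ± 0.11, edgeR adjusted p = 0.024). Its LS513 libraries in 3D also lay above those in 2D without passing (log2 fold change 0.23 ± 0.11, edgeR adjusted p = 0.136).

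**Figure D3:**
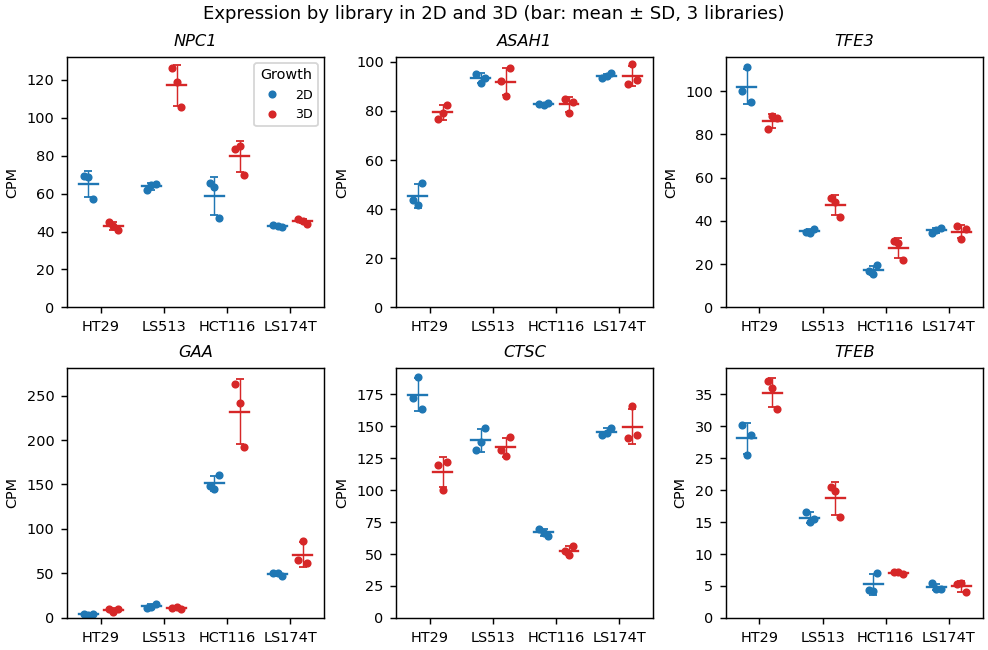
CPM (y axis, linear from 0) of NPC1, ASAH1, TFE3, GAA, CTSC and TFEB in the 3 libraries of each line in 2D (blue) and 3D (red), with bars for mean ± SD. NPC1 falls in HT29 and rises in LS513, ASAH1 separates in HT29 alone, and TFEB of HT29 lies highest at 25.5 to 37.0 CPM with red above blue.

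Among the 9 proteases, 7 were higher and 1 lower in 3D in HCT116, 3 higher and 1 lower in HT29, and 2 higher in LS513 and in LS174T. The shares called were 88.9% in HCT116, 44.4% in HT29 and 22.2% in both LS513 and LS174T, against 29.1%, 40.7%, 23.6% and 22.2% of all tested genes. CTSH (ENSG00000103811, chr15:78921058-78949574, minus strand), an aminopeptidase of the cysteine cathepsins, was most abundant in HT29, at 195, 192 and 199 CPM in 2D and 319, 362 and 339 CPM in 3D (log2 fold change 0.80 ± 0.16, edgeR adjusted p = 0.000428). HCT116, where it was lowest, was at 9.54, 11.2 and 15 CPM in 2D and 20, 18.6 and 21.3 CPM in 3D (log2 fold change 0.74 ± 0.17, edgeR adjusted p = 0.00247). In LS174T, CTSH was at 76.2, 75.1 and 73.8 CPM in 2D and 90.1, 153 and 83.4 CPM in 3D (log2 fold change 0.53 ± 0.16, edgeR adjusted p = 0.0214). The value of 153 CPM in replicate 2 in 3D stood apart from the other 2 libraries in 3D, and the call was lost without 2D replicate 1, 2 or 3 or 3D replicate 2 (log2 fold change between 0.22 and 0.54, edgeR adjusted p between 0.0555 and 0.254). LS513 libraries overlapped, at 86, 92.1 and 88.1 CPM in 2D and 98.2, 108 and 82.4 CPM in 3D (log2 fold change 0.12 ± 0.16, edgeR adjusted p = 0.674).

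CTSS (ENSG00000163131, chr1:150730196-150765957, minus strand), a cysteine protease best known for antigen processing in immune cells, had the largest fold change of the 32 genes. In HT29, CTSS was at 3.81, 4.34 and 4.16 CPM in 2D and 18, 14.7 and 18.2 CPM in 3D, and the lowest 3D library was above the highest 2D library by a wide margin (log2 fold change 2.05 ± 0.25, edgeR adjusted p = 1.49e-06). LS513 was at 5.44, 3.93 and 6.59 CPM in 2D and 15.1, 14.1 and 10.5 CPM in 3D (log2 fold change 1.32 ± 0.24, edgeR adjusted p = 0.000337). LS174T rested on few reads, with 2, 5 and 3 counts in 2D and 8, 14 and 16 counts in 3D (log2 fold change 2.03 ± 0.57, edgeR adjusted p = 0.0135). The LS174T call was lost without 2D replicate 1 or 3D replicate 2 (log2 fold change between 1.79 and 1.88, edgeR adjusted p between 0.0584 and 0.0592). In HCT116 there were 3, 6 and 3 counts in 2D and 15, 2 and 3 counts in 3D, so that 1 library carried the positive estimate (log2 fold change 0.85 ± 0.62, edgeR adjusted p = 0.331). HT29 is also the line in which the macrophage list was summed at 5.04 to 7.43 CPM in 2D and 10.1 to 15.2 CPM in 3D, through CD14, while the other 7 markers stayed at or below 3 counts in every HT29 library. The part of CD14-bearing cells in the CTSS values was not tested.

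CTSZ (ENSG00000101160, chr20:58995185-59007247, minus strand), a carboxypeptidase also called cathepsin X, was at 477, 486 and 443 CPM in 2D and 792, 688 and 733 CPM in 3D in HT29 (log2 fold change 0.66 ± 0.092, edgeR adjusted p = 8.02e-06). LS513 was at 203, 193 and 203 CPM in 2D and 276, 279 and 233 CPM in 3D (log2 fold change 0.40 ± 0.092, edgeR adjusted p = 0.00276). HCT116 was at 104, 102 and 122 CPM in 2D and 133, 135 and 135 CPM in 3D (log2 fold change 0.30 ± 0.092, edgeR adjusted p = 0.0172), and that call was lost without 2D replicate 1 or 2 or 3D replicate 1, 2 or 3 (log2 fold change between 0.25 and 0.29, edgeR adjusted p between 0.0552 and 0.0949) although the groups did not overlap. LS174T libraries overlapped at 84.4, 82 and 84.6 CPM in 2D and 86.5, 102 and 80.5 CPM in 3D (log2 fold change 0.10 ± 0.092, edgeR adjusted p = 0.476). The growth effect of CTSZ differed between lines (edgeR interaction adjusted p = 0.0216).

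CTSL (ENSG00000135047, chr9:87725519-87731393, plus strand), cathepsin L, was higher in 3D in HCT116 alone, where it was at 66.8, 66.8 and 76.4 CPM in 2D and 116, 111 and 113 CPM in 3D (log2 fold change 0.70 ± 0.12, edgeR adjusted p = 0.000364). HT29 was at 14.4, 15.9 and 15.4 CPM in 2D and 11.6, 15.8 and 14.5 CPM in 3D (log2 fold change -0.13 ± 0.13, edgeR adjusted p = 0.476). LS174T was at 13.2, 12.6 and 12.4 CPM in 2D and 12.2, 12.3 and 8.54 CPM in 3D, with 3D slightly below 2D (log2 fold change -0.21 ± 0.13, edgeR adjusted p = 0.259). In LS513, all 6 libraries had 0 counts of CTSL. Against the floor of 3 counts in a single LS513 library, at most 0.107 CPM on the TMM scale, the mean level of CTSL was at least 137-fold higher in HT29, 861-fold higher in HCT116 and 111-fold higher in LS174T. The growth effect differed between lines (edgeR interaction adjusted p = 0.00402), also with LS513 left out of the contrast (edgeR interaction adjusted p = 0.00251).

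The remaining proteases were called in few lines. CTSC, the dipeptidyl peptidase that activates granule serine proteases, was lower in 3D in HT29 (log2 fold change -0.62 ± 0.089, edgeR adjusted p = 1.16e-05) and in HCT116 (log2 fold change -0.35 ± 0.09, edgeR adjusted p = 0.0054), with overlapping libraries in the other lines (edgeR interaction adjusted p = 0.00186). CTSD, the main aspartic protease of the lysosome, was higher in 3D in HCT116 (log2 fold change 0.47 ± 0.12, edgeR adjusted p = 0.00527) and not in the others (edgeR interaction adjusted p = 0.0226). A gene on the same strand, AC068580.4, shares 41.7% of the exonic bases of CTSD, so its counts depend on how such reads were assigned. CTSB, CTSA and TPP1 were called higher in 3D in HCT116 alone, by 0.63 ± 0.11, 0.39 ± 0.11 and 0.28 ± 0.10 on the log2 scale. CTSB also lay higher in 3D without overlap in HT29 (log2 fold change 0.24, edgeR adjusted p = 0.0964) and LS513 (0.28, edgeR adjusted p = 0.0706). So did CTSA in LS513 (0.20, edgeR adjusted p = 0.196). CTSB, CTSA and TPP1 were not among the genes whose growth effect differed between lines. TPP1 shares 11.6% of its exonic bases with a gene of its strand.

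The growth effect differed between the 4 lines for 10 of the 32 genes (31.2%), namely NPC1, ASAH1, TFE3, CTSC, NEU1, GAA, CTSL, CTSZ, CTSD and PSAP, where 17.1% of all tested genes passed. Without replicate 2 of LS174T in 3D the count was 16, where 21.4% of all tested genes passed. For NEU1 and PSAP the lines differed in size but not in direction. For ASAH1, CTSL and CTSD 1 line was called and the rest were not, and for NPC1 the called directions were opposite.

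Levels of these genes also differed between lines. Each line was set against the mean of the other 3, over both growth conditions. In HT29, 18 genes were higher and 11 lower than in the other lines, where 68.4% of all tested genes differed (35.4% higher and 32.9% lower). In LS513, 21 were higher and 4 lower (68.1% of all tested genes differed, 36.2% higher and 31.9% lower). HCT116 had the opposite balance, with 7 higher and 21 lower (75% of all tested genes differed, 41.4% higher and 33.6% lower). In LS174T, 15 were higher and 13 lower (69.5% of all tested genes differed, 39.9% higher and 29.6% lower). The 32 genes together took 0.292 to 0.312% of the counts in HCT116 in 2D and 0.371 to 0.411% in 3D. The shares were 0.385 to 0.390% and 0.379 to 0.416% in LS174T, 0.533 to 0.574% and 0.561 to 0.666% in HT29, and 0.569 to 0.611% and 0.565 to 0.633% in LS513, each in 2D and 3D. Only in HCT116 did the 3D libraries all lie above the 2D libraries in this share.

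HT29 differed from the other lines in CTSH, GAA, CTSZ and both transcription factors, among others. Over its 6 libraries CTSH had a lowest, median and highest level of 192, 259 and 362 CPM, against 9.54, 16.8 and 21.3 CPM in HCT116, and HT29 was above the other lines (log2 difference 2.35 ± 0.085, edgeR adjusted p = 1.53e-17). TFEB in HT29 had a lowest, median and highest level of 25.5, 31.5 and 37 CPM, against 4.02, 4.9 and 5.51 CPM in LS174T (log2 difference 1.98 ± 0.082, edgeR adjusted p = 1.99e-16). TFE3 was likewise highest in HT29 (log2 difference 1.57 ± 0.061, edgeR adjusted p = 5.32e-17), its highest line mean being 4.21 times the lowest, that of HCT116. In contrast, GAA was scarce in HT29, with 3.85 to 10.2 CPM, and abundant in HCT116, with 145 to 263 CPM (log2 difference of HCT116 against the other lines 3.51 ± 0.079, edgeR adjusted p = 1.12e-21). Between the highest and the lowest line mean lay a factor of 28.6 for GAA, 16.8 for CTSH and 11.1 for CTSD. CTSS was higher in both HT29 (log2 difference 3.66 ± 0.17, edgeR adjusted p = 1.46e-15) and LS513 than in the mean of the other lines, with 4.10 ± 0.270 CPM (SD, n = 3) in HT29 and 5.32 ± 1.34 CPM in LS513 in 2D. No factor is given for CTSS, since HCT116 and LS174T held 2 to 16 counts per library.

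LS513 differed most by CTSL, which was at 0 counts, and by CTSS (log2 difference 3.67 ± 0.16, edgeR adjusted p = 8.06e-16). It was also the line with the highest SMPD1 (log2 difference 1.69 ± 0.072, edgeR adjusted p = 3.27e-16), SCARB2 (log2 difference 1.23 ± 0.059, edgeR adjusted p = 3.77e-15) and LAMP1 (log2 difference 1.02 ± 0.05, edgeR adjusted p = 4.38e-15). In HCT116, CTSL was higher than in the other lines, with 66.8 to 116 CPM, while CTSS (log2 difference -3.86 ± 0.31, edgeR adjusted p = 6.54e-11) and CTSH (log2 difference -3.06 ± 0.12, edgeR adjusted p = 2.06e-17) were lower. LS174T was low in CTSS (log2 difference -3.47 ± 0.29, edgeR adjusted p = 1.71e-10) and TFEB (log2 difference -1.61 ± 0.10, edgeR adjusted p = 6.45e-13) and high in GUSB (log2 difference 1.15 ± 0.051, edgeR adjusted p = 9.69e-16) and MAN2B1. Of the 8 glycosidases, 7 were higher in LS174T than in the other lines and none was lower, where 69.5% of all tested genes differed (39.9% higher and 29.6% lower). PSAP varied least, its highest line mean being 1.39 times its lowest.

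**Figure D4:**
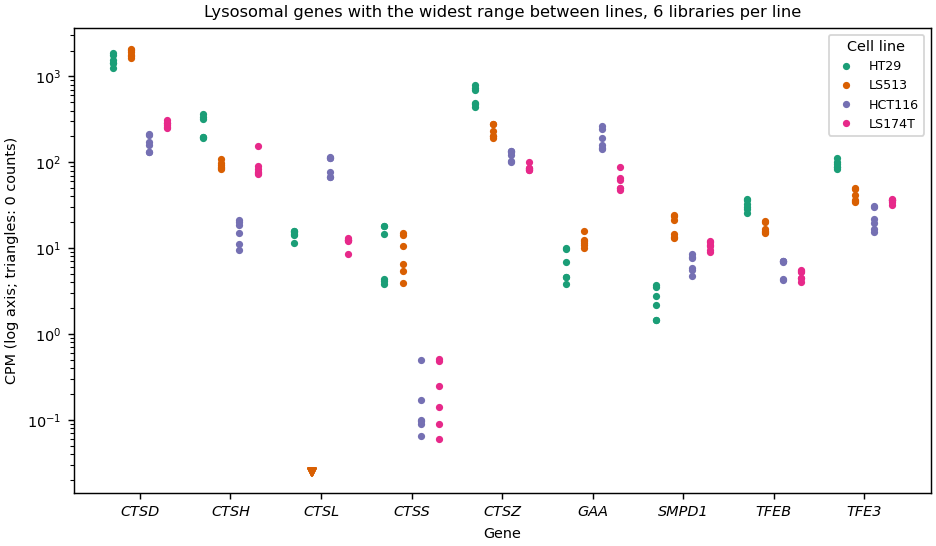
CPM on a log axis for the genes with the widest range between lines, with 6 libraries per line (2D and 3D together) as points and 0 counts as triangles. CTSL of LS513 is at 0 in all 6 libraries, CTSS of HCT116 and LS174T stays below 1 CPM, GAA is highest in HCT116, and TFEB and TFE3 are highest in HT29.

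To compare genes with each other, CPM were divided by the length of the longest coding transcript in kilobases. On this scale of CPM per kilobase, CTSD led in HT29 (801 in 2D and 667 in 3D) and in LS513 (875 and 885), PSAP led in HCT116 (182 and 323), and CD63 and PSAP led in LS174T (164 for CD63 in 2D and 206 for PSAP in 3D). CD63, PSAP and CTSD were among the 5 highest levels in every group, on the scale of CPM per kilobase of the longest coding transcript. On the same scale CTSS, IDUA and SMPD1 ranked 26 or lower of 32 in every group, and TFEB between 24 and 31. With the length of all exons in place of a transcript, long merged genes such as SCARB2 and ASAH1 moved down in the order, and that order was not tested.

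The other genes of the pathway were read from 5 lists of 96 genes, none of them among the 32. Of 30 other hydrolases and cofactors, 29 were tested. In HCT116, 21 of them were higher in 3D and 1 lower, in HT29 18 higher and 2 lower, in LS513 6 higher and 1 lower, and in LS174T 5 higher and 2 lower. The shares called were 75.9% in HCT116, 69% in HT29 and 24.1% in both LS513 and LS174T, against 29.1%, 40.7%, 23.6% and 22.2% of all tested genes. LGMN, legumain, an asparaginyl protease that processes cathepsins, was higher in all 4 lines, by 1.00 ± 0.12 in HT29 and 0.64 ± 0.12 in HCT116 on the log2 scale. DNASE2, the acid DNase, was higher in 3 lines (0.91 ± 0.12 in HT29). ARSB, the sulfatase of dermatan sulfate, was lower in all 4 lines (log2 fold change -0.84 ± 0.074, edgeR adjusted p = 4.43e-09 on the mean of the lines).

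Of 17 other membrane proteins, 5 were higher and 0 lower in HCT116, 6 and 2 in HT29, 1 and 1 in LS174T, and 3 and 1 in LS513. These were 29.4%, 47.1%, 11.8% and 23.5% of them, against 29.1%, 40.7%, 22.2% and 23.6% of all tested genes. CD68, a heavily glycosylated protein of late endosomes that is also used as a macrophage marker, was higher in 3D in all 4 lines, by 2.01 ± 0.19 in LS513 and 1.92 ± 0.19 in HCT116 on the log2 scale. The summed macrophage markers were 0 to 0.0644 CPM in 2D and 0.0346 to 0.284 CPM in 3D in LS513, and 0 to 0.148 CPM in 2D and 0.0920 to 0.292 CPM in 3D in LS174T, where all 8 markers were at or below 3 counts in every 2D library and 7 of 8 in every 3D library. The part of macrophage RNA in the CD68 values was not tested. SLC36A1, a proton-coupled amino acid transporter, was lower in 3 lines (log2 fold change -0.50 ± 0.079, edgeR adjusted p = 1.23e-05 on the mean of the lines). Of 17 subunits of the V-ATPase, which acidifies the lumen, 4 were higher and 3 lower in HCT116, 7 and 2 in HT29, 1 and 1 in LS174T, and 4 and 1 in LS513, or 41.2%, 52.9%, 11.8% and 29.4% of them, read against the same shares of all tested genes. ATP6V0A2 was lower in all 4 lines (log2 fold change -0.45 ± 0.058, edgeR adjusted p = 9.66e-07 on the mean of the lines), and ATP6AP1 was higher in 3.

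Of 14 genes that sort enzymes to the lysosome, 2 were higher and 2 lower in HCT116, 2 and 4 in HT29, 0 and 5 in LS174T, and 0 and 2 in LS513. The shares called, 28.6%, 42.9%, 35.7% and 14.3%, stood against 29.1%, 40.7%, 22.2% and 23.6% of all tested genes, so those of HCT116 and HT29 were near the background. GNPTAB, the catalytic subunit of the enzyme that starts the mannose 6-phosphate tag, was lower on the mean of the 4 lines (log2 fold change -0.46 ± 0.10, edgeR adjusted p = 0.000413). GNPTG, its accessory subunit, was higher there (log2 fold change 0.38 ± 0.065, edgeR adjusted p = 2.87e-05). Among nutrient-sensing genes, 17 of 18 were tested. MTOR, the kinase that holds TFEB in the cytosol in fed cells, was lower in 3D in all 4 lines, with -0.41 ± 0.13 in HCT116, -0.57 ± 0.13 in HT29, -0.72 ± 0.13 in LS174T and -0.49 ± 0.13 in LS513 on the log2 scale (log2 fold change -0.55 ± 0.065, edgeR adjusted p = 2.86e-07 on the mean of the lines). LAMTOR5 and RRAGA, parts of the Ragulator and Rag GTPase complexes that recruit mTORC1 to the lysosome, were higher in all 4 lines (0.44 ± 0.057 and 0.28 ± 0.041 on the mean of the lines). In all, 3 of these genes were higher and 3 lower in HCT116, 6 and 4 in HT29, 2 and 2 in LS174T, and 3 and 2 in LS513. These were 35.3%, 58.8%, 23.5% and 29.4% of those tested, against 29.1%, 40.7%, 22.2% and 23.6% of all tested genes. The share of LS174T was thus near the background.

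P2RX4, the ATP-gated channel that resides largely in lysosomes and is among the purinergic genes the study was about, was higher in 3D in all 4 lines. The study had already reported this rise from the same libraries, and the gene was included with it known. Its values here are therefore not a separate result. In HT29 it was at 6.96, 6.68 and 6.46 CPM in 2D and 18.8, 16.9 and 14.4 CPM in 3D (log2 fold change 1.32 ± 0.16, edgeR adjusted p = 1.53e-06), and LS513, HCT116 and LS174T had log2 fold changes of 1.07 ± 0.15, 0.89 ± 0.16 and 0.56 ± 0.16.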

How the data were processed

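The files deposited by the authors hold whole-number counts of reads per gene, 1 file per technical replicate, without normalization. Per the study's methods, polyA+ RNA was sequenced with a strand-specific kit, and reads were filtered, aligned with STAR, kept where they aligned once and counted with HTSeq over Ensembl 91 exons; the submitters' processing notes name Trim Galore 0.4.1 and HTSeq 0.5.3. The 8 technical replicates of a library were summed; 1 library of HT29 in 3D had 7. The 191 files held no identical pair. Cell line, growth and replicate number came from the labels.

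Counts were tested in R 4.3.3 with edgeR 4.0.16 (filterByExpr, TMM, robust quasi-likelihood fit of 24 libraries in 8 groups), with p-values adjusted by the Benjamini-Hochberg method over 19387 genes and a call at an adjusted p under 0.05. Log2 fold changes are 3D over 2D ± SE, with 3 libraries per group. An exact permutation test of 3 against 3 could not go below 0.1 and was not used. The pipeline was tested on simulated data. Members, context lists and tests were chosen with earlier results of these data known, and no list was tested as a set. Values in every library are given for genes called in 1 direction in at least 3 lines, the 3 largest called changes in each line, the 3 smallest interaction p-values, the 2 largest called differences of each line against the others, and TFEB and TFE3. LAMP1 in HT29 and P2RX4 were added. The names of context genes follow the smallest p on the mean of the 4 lines, at most 3 a list.

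Alternatives were the size factors of DESeq2 1.42.0, its test, no filter, technical replicate d left out, each library left out, a replicate block, the 6 libraries of a line alone and the study's cutoffs. Replicate numbers were shared by 2D and 3D libraries, except in HT29, numbered 1, 2 and 3 in 2D and 1, 3 and 4 in 3D. The correlation of the deviations of same-numbered libraries ranged from -0.209 to 0.216, so the numbers were not taken as pairs. Positions and lengths are from GENCODE 29 on GRCh38, joined by gene identifier; 99.5% of the identifiers were found there. The submitters' notes name hg19 and the study's methods Ensembl 91, so no coordinates were taken from the counting step.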

Additional observations from a re-analysis of the deposited data

Results flagged for a closer look

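The growth effect of 10 genes differed between the 4 lines by a test of the difference itself, an edgeR interaction test adjusted over all tested genes. Of all tested genes, 17.1% also passed.

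NPC1 (adjusted p = 2.5e-06) was lower in 3D in HT29 and higher in LS513 and HCT116. ASAH1 (adjusted p = 7.4e-06) was higher in 3D in HT29, with estimates near 0 in the other lines. TFE3 (adjusted p = 0.00073) was higher in HCT116 and LS513, and its HT29 libraries in 3D lay below those in 2D without passing the test. CTSC (adjusted p = 0.0019) was lower in HT29 and HCT116. NEU1 (adjusted p = 0.003) was higher in all 4 lines, with log2 fold changes from 0.55 in LS174T to 1.36 in HCT116. GAA (adjusted p = 0.0038) was higher in HT29, HCT116 and LS174T, with an estimate of -0.20 in LS513. CTSL (adjusted p = 0.004) was higher in HCT116, with 0 counts in LS513. CTSZ (adjusted p = 0.022) ranged from 0.10 in LS174T to 0.66 in HT29. CTSD (adjusted p = 0.023) was higher in HCT116, with an estimate of -0.26 in HT29. PSAP (adjusted p = 0.027) was higher in all 4 lines, most in HCT116.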

How the results depend on the processing

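The counts of called genes stayed within 1.5 times their main value under another size factor, DESeq2, no filter and without technical replicate d. The cutoffs of the study's gene count (log2 fold change under -0.5 or over 1.5) were taken at an adjusted p under 0.05. They called 0 of the 32 genes in HCT116, 3 in HT29, 1 in LS174T and 0 in LS513. This follows from the cutoffs, since few changes exceeded 1.5 on the log2 scale. With the 6 libraries of LS174T alone, 2 were called there (10.3% of all genes tested in that fit). With a replicate block of line and replicate number, 5 genes differed in growth effect between lines in place of 10, where the share of all tested genes went from 17.1% to 8.76%, and 8 of 95 gene results lost their call (GLB1, HEXA and PSAP in HT29, NPC2, PPT1 and IDUA in HCT116, PPT1 in LS174T and TFE3 in LS513, adjusted p between 0.051 and 0.164). In HT29, replicate 2 in 2D and replicate 4 in 3D had no same-numbered partner, so the HT29 effect under the block rested on replicates 1 and 3. The cause of these changes was not tested.

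Leaving out 1 library at a time gave 16 to 21 called genes in HCT116, 16 to 20 in HT29, 2 to 8 in LS174T, 10 to 14 in LS513, 24 to 26 on the mean of the lines and 8 to 16 for the difference between lines. The share of all tested genes moved as well. It was 18.9 to 30.2% in HCT116, 32.1 to 35.9% in HT29, 10.5 to 30.5% in LS174T and 14 to 26.3% in LS513. On the mean of the lines it was 47.1 to 50.6%, and for the difference between lines 13.6 to 21.4%. Against the other 3 lines the ranges were 26 to 29 in HCT116, 29 to 29 in HT29, 27 to 28 in LS174T and 24 to 26 in LS513. Of all tested genes, 72.1 to 75.8%, 64.9 to 69.1%, 66.2 to 69.5% and 64.5 to 68.5% differed there, in the same order. Of 912 gene results with a library left out, 862 kept their side of the threshold, 47 lost and 3 gained a call. DESeq2 size factors changed 1 of 95 results, and the DESeq2 test changed 2, TFEB in HT29 and HCT116, which gained a call. With a line's own libraries, CTSH, HEXA, GAA, PSAP and PPT1 in LS174T and PPT1 and IDUA in HCT116 lost a call, and TFEB and TFE3 in HT29 gained one. PPT1 in HCT116 lost its call under DESeq2 size factors, no filter, without technical replicate d and with the line's own libraries, and PPT1 in LS174T and CTSZ in HCT116 lost theirs without the filter. None of the 69 called gene results changed sign under these alternatives, while 8 of 26 that were not called did under at least 1, CTSS in HCT116 (0.85) going to -0.55 without 1 library in 3D. Depth limits CTSS in HCT116 and LS174T, at 2 to 16 counts per library.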
